A study of Homo sapiens with 6 samples.

Results

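The 10 genes described here were the chemokine receptor CXCR4, the integrin chains ITGA4, ITGB1, ITGAL and ITGB2, the immunoglobulin family adhesion molecules ICAM1, ICAM3 and NCAM1, the hyaluronan receptor CD44 and the selectin ligand SELPLG. They were chosen by name, as genes of adhesion and marrow homing of myeloma cells, with their values in these libraries already known, and NCAM1 was selected on its fall in the knockdown libraries. All 10 of 10 symbols were present among the 21850 genes of the count table, and all 10 were among the 13971 genes kept by the filter on low counts. Because the comparison of shPRKCN with shNT was used to choose them, their values in it are a description: no p is printed for them, and whether they lie past the limits used for all genes is given only to place them.

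RNA-seq was performed on MM.1S, a human multiple myeloma cell line, at day 3 after lentiviral infection to express a short hairpin RNA. The shNT group (3 libraries) received a scramble hairpin and carries the genotype label WT. The shPRKCN group (3 libraries) received a hairpin against PRKCN, an older symbol of the protein kinase D family gene PRKD3, and carries the genotype label PRKCN knockdown. Both groups were therefore infected cells of 1 line, no uninfected cells were among the libraries, the labels do not name the hairpin or say that more than 1 was used, and nothing states that the replicates were separate cultures, so the errors measure the spread between these libraries, which may be technical.

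Myeloma cells lodge in the bone marrow through signals and contacts of several kinds. CXCR4 senses the stromal chemokine CXCL12. Integrins, each a pair of an α and a β chain, bind matrix and cell surface ligands once activated from inside the cell. CD44 binds hyaluronan, SELPLG carries the glycans that selectins recognize, and NCAM1 (CD56) is a neural adhesion molecule that is also a familiar surface marker of malignant plasma cells and of natural killer cells.

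Library totals ran from 35625564 to 37730003 counts, and the first principal component, with 65.1% of the variance, separated the groups. The targeted gene PRKD3 stood at 1272, 1298 and 1216 CPM (counts relative to the TMM-scaled size of each library, in the usual CPM unit) in the shNT libraries and at 535, 491 and 527 CPM in the shPRKCN libraries. It was therefore lower in all 3 knockdown libraries, at 41.0% of the shNT level (log2 fold change −1.29, SE 0.034, adjusted p = 8.2e-43 by the quasi-likelihood test of edgeR, adjusted over all tested genes by the Benjamini-Hochberg method). The cells carried plasma cell transcripts in both groups: 9 of 10 plasma cell markers were listed, and their summed level was 5826 to 5952 FPKM (read counts scaled by gene length and library total) in shNT and 5298 to 5525 FPKM in shPRKCN libraries. Of these markers, TNFRSF17, XBP1, IRF4 and SLAMF7 were lower in shPRKCN at the limits used here, and the part of that difference in the values of the adhesion genes was not tested. Markers of other blood and marrow cells were also summed. T cell markers (6 of 7 listed) stood at 7.74 to 8.58 FPKM in shNT and 20.2 to 22.9 FPKM in shPRKCN, almost all of it CD3E, while CD3D and CD3G had 0 or 1 counts per library. B cell markers (5 of 7 listed) stood at 17.9 to 19.6 and 28.7 to 31.4 FPKM, mostly CD79B, and myeloid markers (4 of 7 listed) at 9.23 to 10.9 and 6.16 to 7.45 FPKM, mostly CD68. Stromal markers (5 of 7 listed) stood at 0.147 to 0.263 and 0.0885 to 0.129 FPKM, and the part of these lists in the results was not tested. In bulk RNA, fewer cells of a type and less RNA per cell cannot be told apart.

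A call needed an adjusted p below 0.05 together with an absolute log2 fold change of more than 0.58. Of the 10 adhesion and homing genes, 4 lay past these limits, beside 16.7% of all tested genes. ITGAL and ICAM1 were past them on the higher side, where 6.15% of all tested genes stood, and CXCR4 and NCAM1 on the lower side, where 10.6% stood. The CPM of the 3 libraries of one group lay wholly above those of the other for 9 of the 10 genes, beside 58.8% of all tested genes, with ITGA4 as the exception. The median log2 fold change of the 10 was −0.018, beside 0.0012 over all tested genes. Since the contrast chose the genes, nothing is read from these counts.

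**Figure D1:**
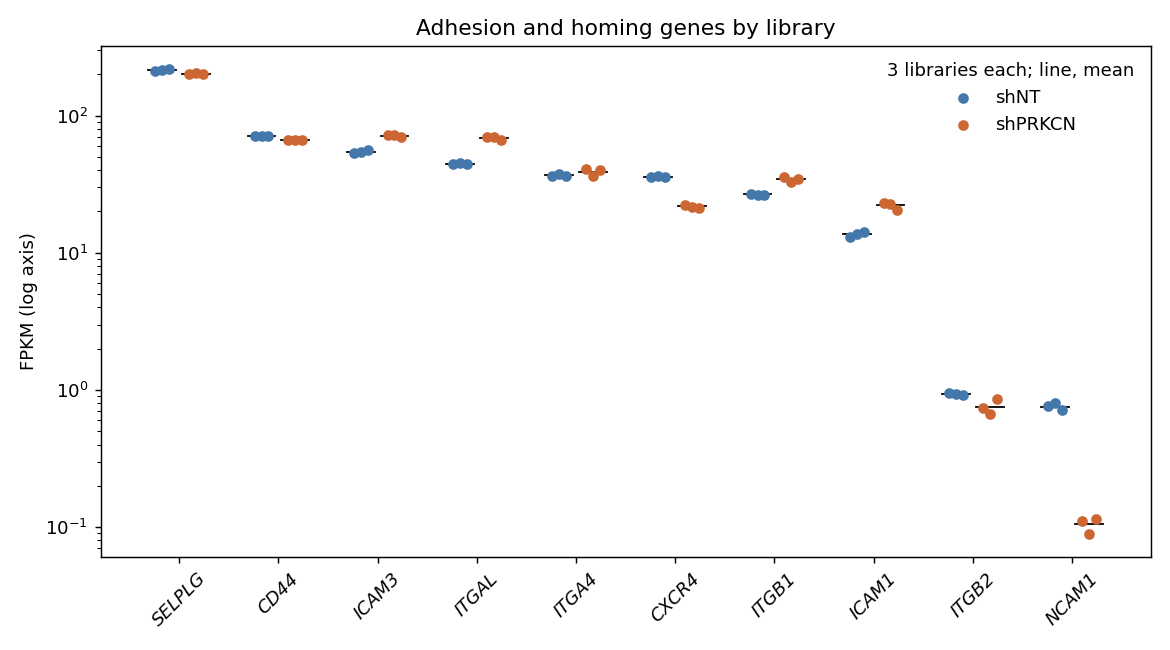
FPKM (log axis) of the 10 adhesion and homing genes in each of the 3 shNT (blue) and 3 shPRKCN (orange) libraries, with the group mean as a line. SELPLG lies highest, at a mean of 215 FPKM in shNT, and NCAM1 lowest, at 0.758 FPKM in shNT and 0.105 FPKM in shPRKCN.

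Per length, the 10 genes spanned a wide range of levels. In shNT libraries the order by mean FPKM was SELPLG (215), CD44 (71.4), ICAM3 (54.6), ITGAL (44.6), ITGA4 (36.8), CXCR4 (35.8), ITGB1 (26.7), ICAM1 (13.7), ITGB2 (0.933) and NCAM1 (0.758), and no 2 neighbours in that order overlapped between libraries. SELPLG was at the percentile 98.5 of all tested genes by FPKM in shNT, and NCAM1 at the percentile 22.4. In shPRKCN libraries the order was SELPLG (202), ICAM3 (71.6), ITGAL (68.6), CD44 (66.2), ITGA4 (39.1), ITGB1 (34.3), ICAM1 (22.2), CXCR4 (21.8), ITGB2 (0.754) and NCAM1 (0.105). There ICAM3 and ITGAL stood above CD44 and ITGB1 and ICAM1 above CXCR4, although the ranges of ITGAL and CD44, and of ICAM1 and CXCR4, overlapped between libraries.

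Of the 10 genes, 6 had an entry in RefSeq's table of promoters (GRCh38.p14), namely CXCR4, ITGA4, ITGB1, ICAM1, ICAM3 and CD44, and NCAM1, ITGAL, ITGB2 and SELPLG had none. The 250 bases before the outermost start are shown for CXCR4 and ICAM1, the genes past the limits with an entry, which differed in opposite directions. The CXCR4 window is chr2:136118150-136118399 on the minus strand and the ICAM1 window is chr19:10270870-10271119 on the plus strand. Capitals mark matches, on either strand, to TATAAA, the core of the classic core promoter box, and to GGAAATTCC, of the κB type.
CXCR4: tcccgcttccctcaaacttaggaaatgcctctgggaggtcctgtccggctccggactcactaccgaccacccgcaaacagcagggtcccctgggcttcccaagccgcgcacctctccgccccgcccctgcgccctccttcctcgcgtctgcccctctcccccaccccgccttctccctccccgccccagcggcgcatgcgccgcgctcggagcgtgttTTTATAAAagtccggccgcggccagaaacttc
ICAM1: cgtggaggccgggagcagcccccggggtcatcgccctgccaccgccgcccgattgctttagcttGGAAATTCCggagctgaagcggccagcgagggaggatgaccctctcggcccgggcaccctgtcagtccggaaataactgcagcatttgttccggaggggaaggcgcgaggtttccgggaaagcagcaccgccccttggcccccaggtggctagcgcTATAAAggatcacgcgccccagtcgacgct
Both windows held TATAAA 30 bases before the start, counted from the first base of the match. In CXCR4 a match on the opposite strand, beginning 32 bases before the start, overlapped it. ICAM1 alone held GGAAATTCC, beginning 186 bases before the start. Of 35116 promoter windows of this length, 10.7% held TATAAA and 0.413% held GGAAATTCC. Over the 11 windows listed for the 6 genes, 3 held TATAAA and 1 held GGAAATTCC, while TGANTCA (AP-1 type, in 6.57% of all windows) and CACGTG (E-box, 6.34%) were in 0 of 11. The motifs were chosen after the sequences were seen, and a match is a string of letters and not a site shown to be bound.

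CXCR4, the receptor for CXCL12, was lower in every knockdown library. Its level was 91.9, 92.4 and 91.0 CPM in shNT and 56.6, 55.5 and 53.3 CPM in shPRKCN. The groups were far apart against their spread, with 60.1% of the shNT level left and a log2 fold change of −0.74 (SE 0.045). CXCR4 lies at chr2:136114349-136118149, and no gene of the annotation overlapped it.

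Of 26 other chemokine and sphingosine phosphate receptors on the list, 11 were tested. Of these, 2 were called higher and 0 lower, 18.2% beside 16.7% of all tested genes. CX3CR1, the receptor for the membrane-bound chemokine CX3CL1, rose from 12.8 ± 0.92 to 28.3 ± 1.3 CPM (SD, n = 3, log2 fold change 1.14, adjusted p = 4.6e-22 by edgeR). The other called gene, ACKR2, named after its values were seen, had a mean of only 13.3 counts. 3 further receptors were named for their level after their values were seen. CCR1 stood at 125 FPKM in shNT and 129 FPKM in shPRKCN, above CXCR4 in both groups. CCR10, a receptor of mucosal plasma cells, stood at 25.8 and 27.7 FPKM, and CCR2 at 32.8 and 26.3 FPKM, the latter with a log2 fold change of −0.33 that was under the fold limit.

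Among 20 tested genes of chemokine receptor signaling and desensitization, 0 were called higher and 3 lower, 15% beside 16.7% of all tested genes. The median log2 fold change was −0.13. RGS1 and RGS2, which speed the shut-off of G proteins, were the named ones. RGS1 fell from 395 ± 4.9 to 136 ± 1.9 CPM (log2 fold change −1.54, adjusted p = 1.1e-46 by edgeR) and RGS2 from 71.3 ± 2.6 to 26.6 ± 1.6 CPM (−1.42, adjusted p = 1.7e-34). The other called gene, the receptor kinase GRK3 (−0.62), was named after its values were seen and was scarce, at 5.61 CPM in shNT and 3.65 CPM in shPRKCN. Further receptor kinases, also named after their values were seen, were under the fold limit. GRK2 (0.28) stood at 327 CPM in shNT and 397 CPM in shPRKCN, GRK6 (−0.06) at 135 and 130 CPM, and GRK5 was at −0.006.

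The 4 integrin chains did not move as one. ITGAL, the α chain of LFA-1, which binds ICAM molecules, was at 245, 246 and 241 CPM in shNT and at 375, 381 and 357 CPM in shPRKCN. All knockdown libraries were higher, at 1.52 times the shNT level, and the log2 fold change of 0.60 (SE 0.035) lay just beyond the fold limit of 0.58. Its only β partner, ITGB2, was scarce, with 108, 109 and 110 counts in shNT and 87, 79 and 102 counts in shPRKCN. The knockdown libraries were lower without overlap, but the difference was small against its error (log2 fold change −0.33, SE 0.19). The FPKM of ITGAL over that of ITGB2 was 46.8, 48.6 and 48.0 in shNT and 94.1, 105 and 77.7 in shPRKCN, so the gap between the transcripts of the pair was wider in every knockdown library.

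ITGA4, the α4 chain of the receptors for VCAM1, fibronectin and MAdCAM-1, was at 271, 279 and 269 CPM in shNT and at 299, 270.4 and 289 CPM in shPRKCN. It was the gene whose groups overlapped, with a log2 fold change of 0.07 (SE 0.036). ITGB1, the common β1 chain and a partner of α4 in VLA-4, was at 109, 107 and 108 CPM in shNT and at 141, 133 and 138 CPM in shPRKCN. It was higher in every knockdown library by a log2 fold change of 0.34 (SE 0.039), short of the fold limit. ITGA4 over ITGB1 in FPKM accordingly stood at 1.38 ± 0.038 in shNT and 1.14 ± 0.026 in shPRKCN (SD, n = 3), without overlap.

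**Figure D2:**
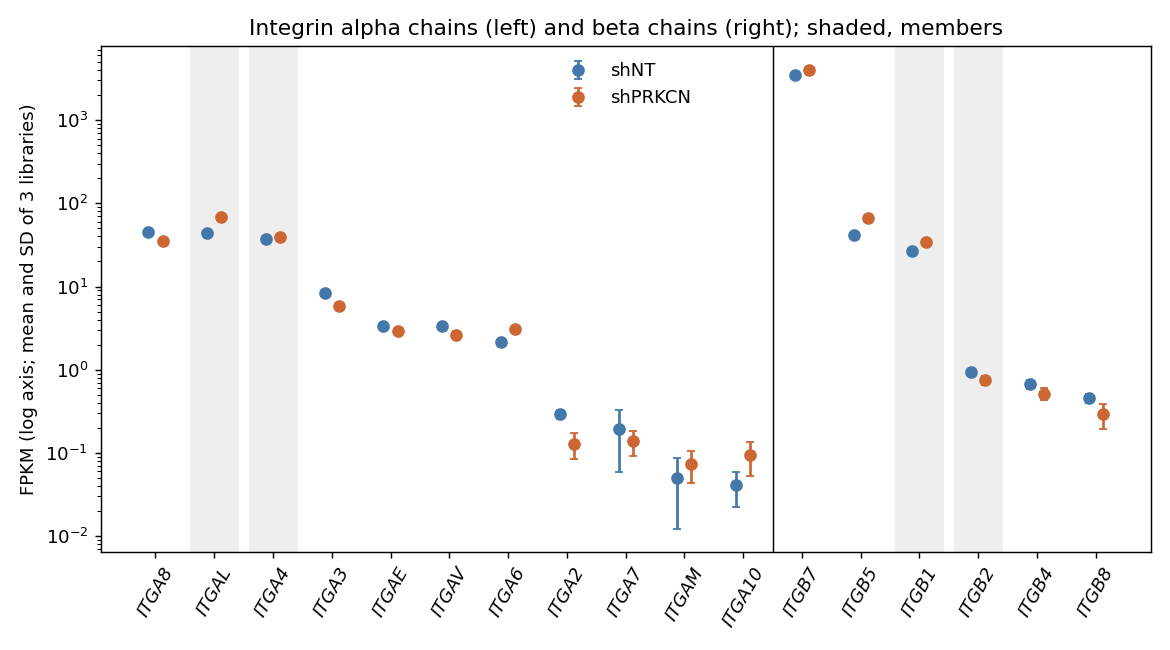
Mean FPKM (log axis) and SD over 3 libraries of every tested integrin chain, α chains at left and β chains at right, in shNT (blue) and shPRKCN (orange), with the 4 members shaded. ITGB7 stands above every other chain, at 3517 FPKM in shNT, while ITGB2 stands at 0.933 FPKM.

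Of 22 other integrin chains, 13 were tested. Of these, 2 were called higher and 2 lower, 30.8% beside 16.7% of all tested genes, and the median log2 fold change was −0.35. ITGB5, a β chain that pairs with αV, rose from 204 ± 7.6 to 313 ± 9.2 CPM (log2 fold change 0.62, adjusted p = 1.4e-24 by edgeR). ITGA2, a collagen receptor chain, fell from 2.31 ± 0.29 to 1.00 ± 0.34 CPM (−1.20, adjusted p = 7.7e-05), and ITGB8 from 4.72 ± 0.62 to 2.96 ± 0.95 CPM (−0.67, adjusted p = 0.00082). The other chain called, ITGA10, stood under 0.1 FPKM in both groups and was named after its values were seen.

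2 further chains were named after their values were seen because they share partners with the members. ITGB7, the other β partner of α4, stood at 3517 ± 62 FPKM in shNT and 4053 ± 68 FPKM in shPRKCN, and its log2 fold change of 0.19 (SE 0.030) was under the fold limit. The FPKM of ITGA4 was 0.0105 ± 0.00032 of that of ITGB7 in shNT and 0.00966 ± 0.00073 in shPRKCN, and these ratios overlapped. ITGA8, an α partner of β1, stood at 44.7 FPKM in shNT and 35.5 FPKM in shPRKCN, beside 36.8 and 39.1 FPKM for ITGA4.

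Of 35 tested integrin activators and adaptors, 3 were called higher and 4 lower, 20% beside 16.7% of all tested genes. The median log2 fold change was 0.017. The tetraspanin CD9 rose (log2 fold change 0.64, adjusted p = 1.4e-23 by edgeR). The kinase SRC fell from 2.25 ± 0.57 to 0.649 ± 0.31 CPM (−1.79, adjusted p = 5.4e-07), and kindlin-2, FERMT2, from 2.47 ± 0.50 to 1.36 ± 0.38 CPM (−0.86, adjusted p = 0.0019), both scarce transcripts. Also called, and named after their values were seen, were RAPGEF1 (0.59), an activator of the small G protein Rap1, and the actin linkers FLNA (−0.85) and VCL (−0.67). The other kindlins, FERMT1 and FERMT3, also named after their values were seen, were more abundant than FERMT2. They stood at 45.3 and 58.7 CPM in shNT and at 59.2 and 79.4 CPM in shPRKCN. Their log2 fold changes of 0.39 and 0.44 were under the fold limit.

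Both ICAM genes, whose products are ligands of LFA-1, were higher in every knockdown library. ICAM1 was at 39.3, 41.0 and 42.5 CPM in shNT and at 68.1, 68.2 and 60.3 CPM in shPRKCN. It stood at 1.60 times the shNT level, with a log2 fold change of 0.68 (SE 0.052), past the limits. ICAM3, the ICAM of resting leukocytes, was at 128, 130.3 and 136 CPM in shNT and at 170, 174 and 166 CPM in shPRKCN, a log2 fold change of 0.37 (SE 0.038) that was under the fold limit. The ratio of ICAM3 to ICAM1 in FPKM was 3.99 ± 0.053 in shNT and 3.23 ± 0.17 in shPRKCN, so ICAM3 remained the more abundant per length while the ratio was lower in every knockdown library.

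Among 9 tested ligands and counter-receptors, 2 were called higher and 2 lower, 44.4% beside 16.7% of all tested genes. Fibronectin, FN1, a ligand of α4β1, fell from 21.4 ± 1.0 to 8.97 ± 0.52 CPM (log2 fold change −1.25, adjusted p = 7.9e-21 by edgeR). The other called genes, ICAM5, THBS1 and JAM2, had means of 31.0 to 32.5 counts and were named after their values were seen.

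**Figure D3:**
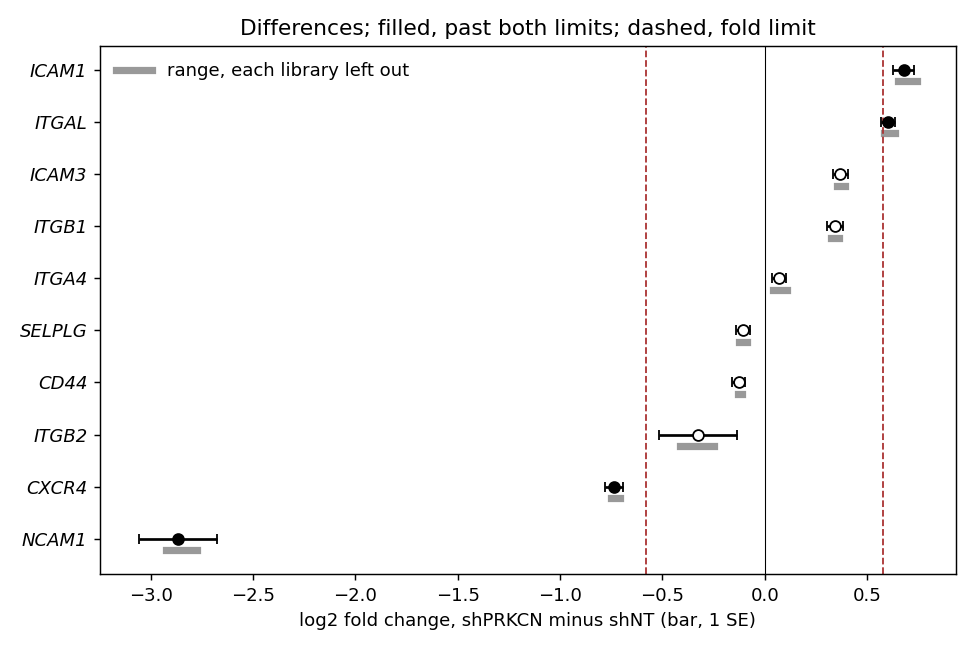
log2 fold change (shPRKCN minus shNT) with 1 SE for the 10 genes, with filled points for those past both limits, dashed lines at the fold limit and grey bars for the range when each library was left out. NCAM1 at −2.87 is set apart from the other 9, which lie between −0.74 and 0.68.

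NCAM1 differed most of the 10 and was selected on that difference. It had 226, 247 and 225 counts in shNT and 34, 28 and 36 counts in shPRKCN. Every knockdown library was far below every shNT library, with 13.7% of the shNT level left. The log2 fold change was −2.87 (SE 0.19), or 7.30-fold lower, the rank 18 from the lowest of 13971 tested genes. The gene was scarce even in shNT, at 6.38 ± 0.35 CPM, and its level in shPRKCN, 0.870 ± 0.10 CPM, was still above a floor of 3 counts in each library.

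NCAM1 is also a marker of natural killer and neural cells. Of 8 natural killer cell markers 6 were listed, with a summed level of 0.963 to 1.10 FPKM in shNT and 1.06 to 1.23 FPKM in shPRKCN. KLRD1 had 0 or 1 counts, PRF1 0 to 4 and NCR1 3 to 11 counts per library, GNLY was lower (log2 fold change −1.37, adjusted p = 0.017 by edgeR) and KLRC1 higher (1.63, adjusted p = 6.1e-06). Of 8 neural markers 6 were listed, at 15.6 to 17.02 FPKM in shNT and 9.01 to 9.44 FPKM in shPRKCN. That sum was mostly SOX2 (15.9 and 9.08 FPKM), while NEFM and GFAP had 0 or 1 counts per library. The part of these cell type markers in the NCAM1 difference was not tested.

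NCAM1 lies at chr11:112961420-113278436 on GRCh38.p14. The genes that overlap it in the annotation, NCAM1-AS1, NCAM1-AS2 and a small RNA pseudogene, were not among the listed genes. Within 500 kb, TTC12 (log2 fold change 0.02) and ZW10 (−0.41) were under the fold limit, TMPRSS5 (−0.30) did not pass the test, and ANKK1 was called lower (−1.22, adjusted p = 0.018 by edgeR) on 9 to 27 counts.

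The 5 tested genes most like NCAM1 over the 6 libraries, by root mean square difference of centred log2 CPM, were FOSB (0.155), FOS (0.160), PXDN (0.183), LOC613266 (0.185) and SPINK5 (0.188). FOSB and FOS encode AP-1 subunits, and FOSB went from 982 to 1025 counts in shNT libraries to 107 to 126 in shPRKCN libraries. The likeness is a description over 6 libraries that share the same group difference.

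The NCAM1 protein carries polysialic acid, which loosens adhesion and is added by ST8SIA2 and ST8SIA4. ST8SIA2 fell from 6.41 ± 0.87 to 2.58 ± 0.25 CPM (log2 fold change −1.31, adjusted p = 4.7e-11 by edgeR), while ST8SIA4, named after its values were seen, had a log2 fold change of −0.46, under the fold limit. Of 10 tested NCAM1 signaling partners, 0 were called higher and 4 lower, 40% beside 16.7% of all tested genes. The median log2 fold change was −0.49. Contactin 1, CNTN1, a neural adhesion molecule, had 625, 695 and 645 counts in shNT and 119, 78 and 150 counts in shPRKCN (−2.54, adjusted p = 1.8e-28 by edgeR). The GDNF coreceptor GFRA1, which can signal with NCAM1, fell from 2.32 ± 0.69 to 0.762 ± 0.38 CPM (−1.60, adjusted p = 3.5e-06). The other called partners, named after their values were seen, were its ligand GDNF (−0.95) and the receptor kinase FGFR1 (−1.20, with a mean of 22.2 counts).

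**Figure D4:**
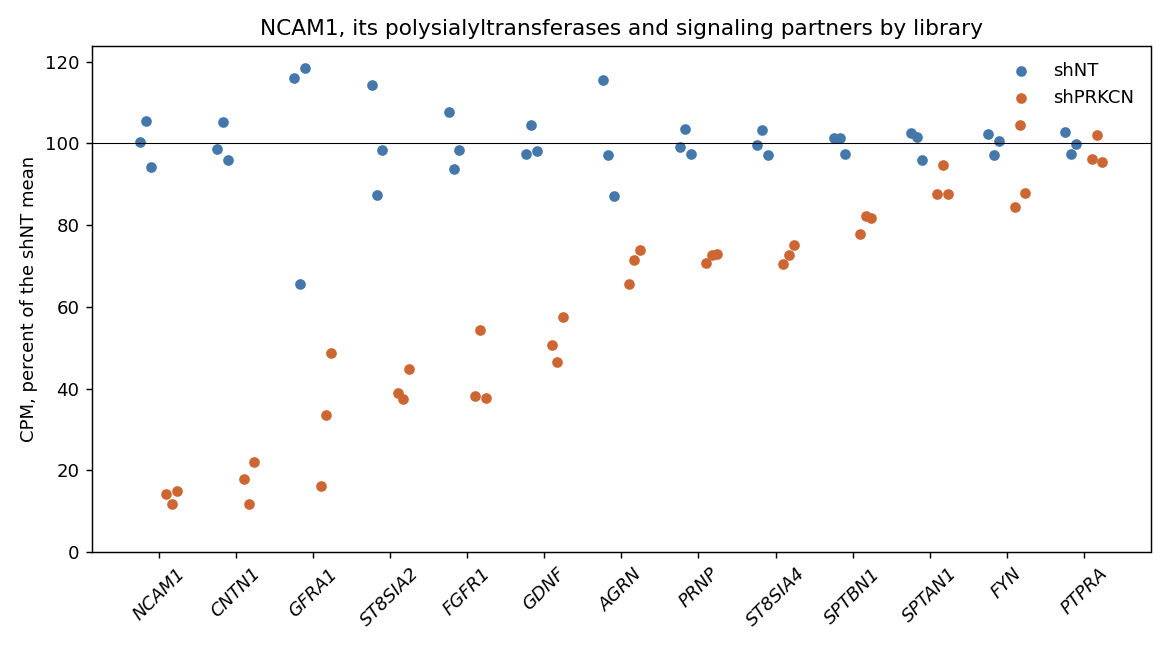
CPM in each library as a percent of the shNT mean for NCAM1, its polysialyltransferases and every tested signaling partner. NCAM1 lies at 11.8% to 14.9% in shPRKCN libraries and CNTN1 at 11.7% to 22.01%, while PTPRA lies on both sides of 100%.

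Of 20 tested other immunoglobulin and cadherin adhesion molecules, 2 were called higher and 2 lower, 20% beside 16.7% of all tested genes. CEACAM1 rose from 5.77 ± 0.77 to 15.1 ± 0.45 CPM (log2 fold change 1.39, adjusted p = 1.1e-18 by edgeR) and NECTIN1 from 151 ± 7.8 to 235 ± 9.2 CPM (0.64, adjusted p = 1.3e-23). PECAM1 (CD31), an adhesion molecule of endothelial cell junctions and of leukocytes, fell from 21.3 ± 1.9 to 8.98 ± 0.14 CPM (−1.24, adjusted p = 1.7e-20). CD226 (−1.52, a mean of 37.3 counts) was the other called gene and was named after its values were seen.

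CD44 and SELPLG, the 2 most abundant of the 10 genes per length in shNT, differed little. CD44 was at 508, 506 and 509 CPM in shNT and at 466, 468 and 459 CPM in shPRKCN. The knockdown libraries were lower without overlap, at 91.5% of the shNT level (log2 fold change −0.13, SE 0.033). SELPLG, the ligand of P-selectin, was at 597, 601 and 614 CPM in shNT and at 557, 577 and 551 CPM in shPRKCN, lower in every knockdown library at 92.9% of the shNT level (log2 fold change −0.11, SE 0.033). Neither reached the fold limit.

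Of 17 tested CD44 partners, proteoglycans and sheddases, 1 was called higher and 5 lower, 35.3% beside 16.7% of all tested genes. The median log2 fold change was −0.41. HMMR, a hyaluronan receptor that also acts at the mitotic spindle, fell from 64.7 ± 0.29 to 29.3 ± 1.4 CPM (log2 fold change −1.14, adjusted p = 1.2e-29 by edgeR). The proteoglycan SDC4 fell from 3.96 ± 0.26 to 2.30 ± 0.23 CPM (−0.78, adjusted p = 0.00016), and the glypican GPC1 rose from 5.05 ± 0.85 to 7.63 ± 0.63 CPM (0.60, adjusted p = 7.3e-05). The other called genes, named after their values were seen, were EZR (−0.62), which links CD44 to actin, the granule proteoglycan SRGN (−0.63), which CD44 can bind, and ESRP1 (−1.21, a mean of 33.7 counts), a regulator of CD44 splicing. The EZR relatives MSN (0.46) and RDX (0.25), also named after their values were seen, differed upward, under the fold limit. MSN stood at 701 CPM in shNT and 965 CPM in shPRKCN, beside 136 and 88.4 CPM for EZR.

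Selectins bind SELPLG only after it is decorated with O-glycans, sialic acid, fucose and sulphate. Of 12 tested genes of glycosylation of selectin ligands and NCAM1, 1 was called higher and 5 lower, 50% beside 16.7% of all tested genes. The median log2 fold change was −0.44. GCNT1, which builds the core 2 branch, rose from 360 to 368 counts in shNT libraries to 573 to 692 in shPRKCN libraries (log2 fold change 0.78, adjusted p = 1.3e-11 by edgeR). The sialyltransferase ST3GAL4 fell from 2.94 ± 0.17 to 1.29 ± 0.16 CPM (−1.19, adjusted p = 6.4e-06). C1GALT1 (−0.77), which makes the core 1 chain that GCNT1 extends, ST3GAL6 (−0.61) and the tyrosine sulphotransferase TPST1 (−0.77) were also called lower and were named after their values were seen. TPST1 stood at only 7.72 CPM in shNT and 4.54 CPM in shPRKCN. The related TPST2, also named after its values were seen, stood at 237 and 293 CPM (0.31), under the fold limit. Of the fucosyltransferases on the list, FUT7 was not among the listed genes. FUT4 (−0.42), also named after its values were seen, was under the fold limit.

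Over all 9 lists, 147 genes were tested and 40 were called, 13 higher and 27 lower, which is 27.2% beside 16.7% of all tested genes. The share called was 50% for glycosylation, 44.4% for ligands, 40% for NCAM1 partners, 35.3% for CD44 partners and 30.8% for other integrin chains. It was 20% for integrin activators and for immunoglobulin and cadherin molecules, 18.2% for chemokine receptors and 15% for chemokine receptor signaling. The lists were drawn up with earlier results of these data known, so these shares are a description.

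The strandedness of the counting is not given in the sources used here, so ITGB2 (79 to 110 counts) cannot be told apart from ITGB2-AS1 where they overlap, and ITGB2-AS1 itself had 1 to 9 counts. LOC107987303, which also overlaps ITGB2, had 0 to 1 counts. CERKL, which overlaps ITGA4, had 2 to 17 counts, and LOC105369968, which overlaps SELPLG, had 106 to 149 counts. Further genes that overlap a member were not among the listed genes. They were LIMASI and ICAM4-AS1 over ICAM1, ITGAL-AS1 over ITGAL, CD44-AS1 over CD44, and small RNA genes or pseudogenes over ITGAL, ITGB1 and CD44. Any reads of theirs cannot be told apart from those of these members.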

How the data were processed

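MM.1S cells were compared between shPRKCN and shNT, with 3 libraries per group taken from the treatment labels. The authors deposited raw counts per gene and FPKM values for 21850 genes. The submitters' processing notes name FastQC, HISAT2, StringTie and GRCh38.p14, without their roles. The counting program and its strand setting are not given in the sources used here. The deposited FPKM followed from the counts and 1 length per gene for 12151 of 12151 genes with at least 20 counts in every library, within 0.1%.

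Counts were filtered with filterByExpr (13971 genes kept), scaled with TMM and tested with edgeR 4.0.16 in R 4.3.3 (quasi-likelihood, Benjamini-Hochberg adjustment over all tested genes). A called gene had an adjusted p below 0.05 with an absolute log2 fold change of more than 0.58, the limits of the study, which used DESeq2. Here 859 genes were called higher and 1475 lower by edgeR, and 813 and 1445 by DESeq2. The paper reports more genes in each direction, and the reason for the difference was not tested. SEs were derived from the fold change and the F statistic (absolute value over the square root). Tested on simulated data with 200 genes changed by 1.5 on the log2 scale, edgeR recovered 200 with 4 false calls among 13977 genes. DESeq2 recovered 199 and limma 189. The changed genes were not scarce and all genes shared a low common dispersion. The simulation therefore does not cover differences near the fold limit or in scarce genes.

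As alternatives, the scaling was replaced by RLE, by upper quartiles or by library totals, the filter was dropped or set to at least 10 counts in every library, the fold limit was dropped, a replicate block was added, each library was left out, and the tool was replaced by DESeq2 1.42.0 or by limma 3.58.1 with a pseudocount of 1 or 0.1 added to FPKM before the log2.

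The 10 members and the lists (9 lists, 197 genes) were chosen with earlier results of these data known. Named were every member, PRKD3, genes overlapping a member, the 5 genes most like NCAM1 and, from each list, up to 2 called genes with the largest log2 fold change in each direction and a mean of at least 50 counts. A gene that the rule names is not reported here. Members and markers not in the tables were not taken as 0. Promoter windows are RefSeq's (GRCh38.p14), searched in Python.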

Additional observations from a re-analysis of the deposited data

How the results depend on the processing

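The count of adhesion genes past the limits stayed at 4 under 15 alternatives, and was 8 with no fold limit. Genes called numbered 2334, against 963 by limma on log2(FPKM + 1) and 7577 with no fold limit, and called genes of the lists around the members numbered 40, against 17 and 103. CXCR4, ITGAL, ICAM1 and NCAM1 were past the limits in 15 of 15 alternatives that kept the fold limit, and no log2 fold change of the 10 changed sign. Since this contrast chose the genes, that is a description and no support. With each library left out, ITGAL ran from 0.58 to 0.64, its lowest value lying only just beyond the limit, and NCAM1 from −2.93 to −2.77. NCAM1 was −2.07 by limma on log2(FPKM + 0.1) and −0.67 on log2(FPKM + 1), since a pseudocount shrinks the difference of a scarce gene by construction. With the replicate block 2317 genes and 4 members were called. Deviations of libraries with the same number correlated by −0.042, −0.013 and 0.0038, so the numbers were not taken to pair the samples. ITGB2 and NCAM1 rest on 79 to 110 and 28 to 247 counts, and their errors are the widest of the 10.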
